A study of Mus musculus with 2 samples.

Results

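Wnt signalling was examined here through the binding sites of a Dux chimera near 49 genes of the pathway, all protein-coding and all matched by symbol among 21900 positioned protein-coding genes. The genes were 19 Wnt ligands, 12 receptors (the Frizzled genes *Fzd1* to *Fzd10* with *Lrp5* and *Lrp6*), 8 secreted antagonists of the Dkk and Sfrp families, 5 intracellular regulators (*Dact1*, *Dact2*, *Dact3*, *Axin1* and *Axin2*) and 5 nuclear effectors (*Ctnnb1*, *Lef1*, *Tcf7*, *Tcf7l1* and *Tcf7l2*). A peak was counted for a gene when its summit lay inside the annotated gene span or within 20 kb of either end, and 68 of the 51356 deposited peaks did so for a member. No summit was counted for more than 1 member.

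ChIP-seq (sequencing of DNA recovered by chromatin immunoprecipitation) was performed in C2C12 cells, an established mouse myoblast line. All cells were of 1 clone selected with puromycin for a doxycycline-inducible transgene, MMH, whose codon-altered homeodomains come from mouse Dux and whose carboxy terminus comes from human DUX4. Transgene expression was induced with 2 ug/ml doxycycline for 18 h in both libraries. The antisera library was precipitated with the DUX4 antisera MO488 and MO489. The control library is labelled as HA antibody, and the authors' name for the peak list also gives HA. The description of the series speaks of GFP, and which was used could not be settled. After duplicate removal the peak caller kept 26253175 fragments of the antisera library and 23412256 of the control library, per the file headers. Each group was 1 library, without replicates. The values below are therefore descriptions of 1 peak list, and their intervals cover counting error only. The data used here hold no RNA, so neither the activity of any gene nor the myoblast identity of the cells could be checked against marker genes. Each peak carries the authors' own values. The pileup counts how many antisera fragments cover the summit. Fold enrichment is that number plus 1, divided by the local background plus 1, where the background is derived from the control library and never falls below a genome-wide minimum of 4.01 fragments. Coordinates are those of mm10, and gene spans those of RefSeq on GRCm38.p6.

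Wnt ligands are secreted lipid-modified glycoproteins that bind Frizzled receptors together with the co-receptors *Lrp5* and *Lrp6*. In the canonical branch this stops an Axin-based complex from destroying beta-catenin (*Ctnnb1*), which then acts in the nucleus with the TCF and LEF DNA-binding proteins. Sfrp proteins bind the ligands and Dkk proteins block the co-receptors, while Dact proteins bind Dishevelled in the cytoplasm. In skeletal muscle the pathway takes part in the growth, differentiation and regeneration of muscle precursor cells. Dux and DUX4 are double-homeodomain transcription factors of the early embryo, and mouse Dux is known to bind a site with the half-sites TGAT and ATCA.

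The highest fold enrichment near any member lay at *Dact3*, and the sequence below is shown because the summit of that peak falls in it. It is the promoter window of *9330104G04Rik*, a long noncoding RNA gene on the opposite strand to *Dact3*. The window runs from 250 bases before to 50 bases after the annotated start, is taken from RefSeq on GRCm38.p6 (chr7:16874837-16875136, minus strand), and is written 5′ to 3′. Capitals mark the only match, on either strand, to TGATTNAAT, a 9-letter part of the longer Dux site TGATTNAATCA.
9330104G04Rik promoter window: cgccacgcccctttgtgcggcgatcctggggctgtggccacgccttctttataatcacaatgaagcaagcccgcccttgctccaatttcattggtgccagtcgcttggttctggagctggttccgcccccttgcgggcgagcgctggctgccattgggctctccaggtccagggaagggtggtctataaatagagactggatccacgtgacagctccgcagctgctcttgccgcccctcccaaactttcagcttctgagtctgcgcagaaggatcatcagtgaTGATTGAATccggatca

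The capital letters cover positions 16874845 to 16874853 on chromosome 7, and the summit lay at 16874844, 1 bp from them. The *Dact3* promoter window (chr7:16875067-16875366, plus strand) held no match, and 89 of its 300 bases lay within the peak. Across the 32851 RefSeq promoter windows of this length, TGATTNAAT occurred on either strand in 236 (0.718%). Among the 379 windows that held a peak summit it occurred in 59 (15.6%, exact binomial 95% interval 12.1 to 19.6%), against 177 of the 32472 windows without a summit (0.545%, interval 0.468 to 0.631%). The full TGATTNAATCA (every match to which also contains TGATTNAAT) occurred in 7 of the 379 windows with a summit (1.85%) and in 4 of the 32472 without. RefSeq windows were at hand for 34 of the 49 members, 43 windows in all. Only 1 of the 43, at an internal start of *Tcf7l2*, held TGATTNAAT, and the nearest summit was 3882 bp from that start. The letters were chosen after sequences at peaks had been seen, and a match describes the letters and is not a site.

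At least 1 peak lay within 20 kb of 33 of the 49 members (67.3%, exact binomial 95% interval 52.5 to 80.1%), against 62.3% of all protein-coding genes. The share of members is thus near the background. Of the 33, 21 members had 1 peak and 12 had more. The members' windows held 18.6 peaks per Mb (Poisson 95% interval 14.5 to 23.6), against 19.7 per Mb over the windows of all protein-coding genes (19.4 to 19.9). The median best fold enrichment was 10.4 in members with a peak, against 12.2 in protein-coding genes with one. A peak among the strongest 10% of the list by −log10 p was found at 4 members (8.16%), against 13.2% of all protein-coding genes, and the 4 were *Dact3*, *Tcf7l2*, *Lrp6* and *Dkk2*. The plot of fold enrichment by member shows how far these lay above the rest.

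**Figure D1:**
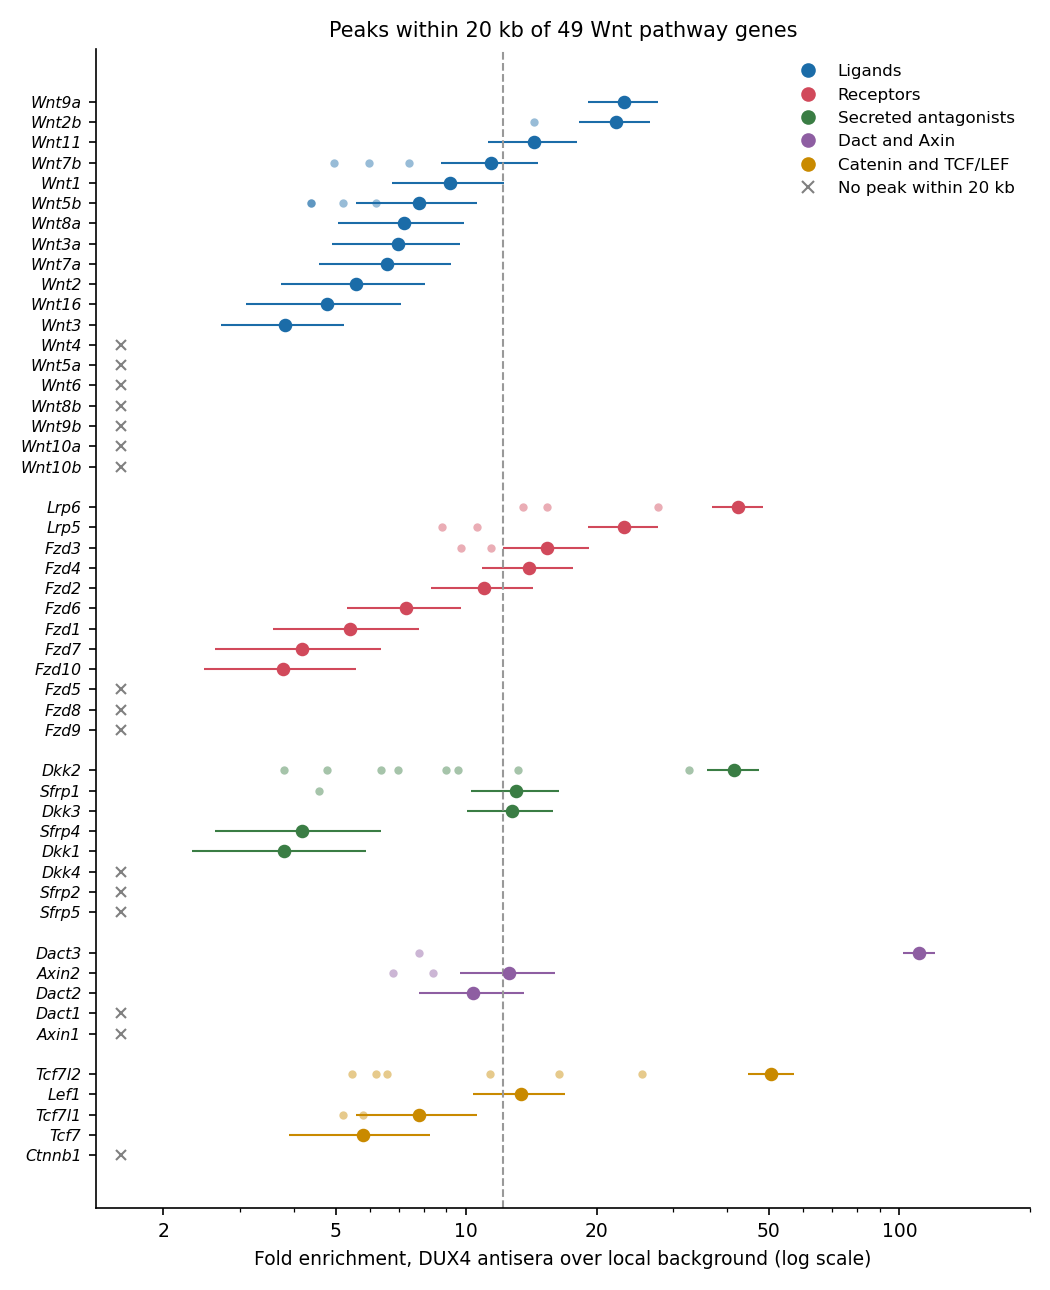
Fold enrichment of every peak within 20 kb of the 49 members (x axis, log scale), grouped by role and ordered within each role by the best peak. Large points are the best peak of each gene with its Poisson 95% interval, small points are further peaks, crosses mark the 16 genes with no peak, and the dashed line is the median best peak of all protein-coding genes with one (12.2). *Dact3* stands at 111 and *Tcf7l2*, *Lrp6* and *Dkk2* between 41.5 and 50.7, while every ligand is at 23.1 or lower.

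In protein-coding genes as a whole, the share with a peak was higher in longer genes. Among members with spans of up to 10 kb, 10 of 17 had a peak (58.8%), against 46.4% of the 7939 protein-coding genes of that size. Between 10 and 30 kb the shares were 5 of 11 (45.5%) in members and 58.6% in all coding genes. Between 30 and 100 kb they were 12 of 15 (80.0%) and 76.1%, and above 100 kb all 6 members had a peak, as did 95.2% of coding genes. Members lay above the coding genes of their size in 3 of the 4 classes and below them in 1. With only 6 to 17 members in a class, these differences rest on few genes, and they were not tested.

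**Figure D2:**
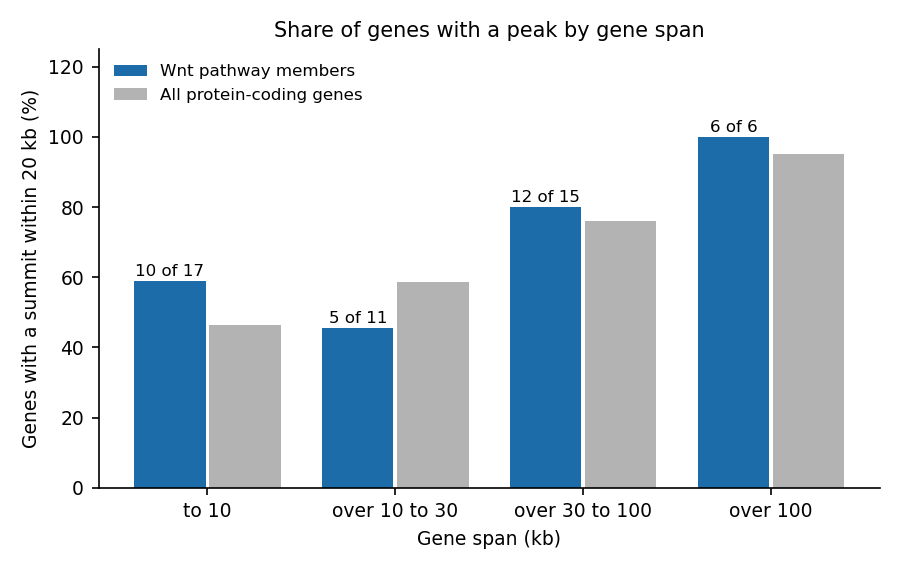
Share of genes with a summit within 20 kb (y axis, percent) in 4 classes of gene span (x axis, kb), for the Wnt pathway members (left bar of each pair, with counts) and all protein-coding genes (right bar). In both sets the share is highest in the longest genes, at 100% of members and 95.2% of coding genes above 100 kb.

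Of the 5 roles, the ligands had the lowest median best fold, 7.48. A peak was found at 12 of 19 (63.2%, exact interval 38.4 to 83.7%, against 62.3% of coding genes). None of the 19 had a peak among the strongest 10% of the list, against 13.2% of coding genes. *Wnt9a*, a ligand of joint development, had 1 peak inside the gene at 59329547 to 59330067 on chromosome 11. Its antisera pileup was 115 fragments against a background of 4.01, the genome-wide minimum. The enrichment was 23.1-fold (Poisson 95% interval of the pileup with the background held fixed, 19.1 to 27.7). *Wnt2b*, which acts in eye and lung development, had a peak inside the gene with a pileup of 110 against a background of 4.01, or 22.1-fold (18.2 to 26.6). The intervals of *Wnt9a* and *Wnt2b* overlap nearly whole, so they cannot be ranked. A second *Wnt2b* peak, 14.4-fold and 5010 bp outside the gene, lay inside the neighbouring *St7l*. *Wnt11*, a ligand of non-canonical signalling, had 1 peak inside the gene, with a pileup of 71 against 4.01 (14.4-fold, 11.3 to 18.1).

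*Wnt5b*, also of the non-canonical branch, had the most peaks of any ligand, 5, all inside its 112294 bp span. Their pileups were 38, 30, 25, 21 and 21 fragments, each against a background of 4.01, and fold enrichment was 4.39 to 7.78. Peaks as numerous were found at 49.3% of the 2429 coding genes with spans above 100 kb. *Wnt7b* had 4 peaks, all outside the gene, the best 1059 bp from its end at 11.4-fold (8.75 to 14.6) and the other three between 15272 and 17535 bp away at 4.95- to 7.38-fold. *Wnt7a*, a ligand known to act on muscle stem cells, had 1 peak 7677 bp outside the gene with a pileup of 32 against 4.01 (6.58-fold, 4.57 to 9.21). At *Wnt3* the pileup of 37 stood against 8.97, the highest background at any member, which gave 3.81-fold. *Wnt1*, *Wnt2*, *Wnt3a*, *Wnt8a* and *Wnt16* had 1 peak each, between 4.79-fold at *Wnt16* and 9.18-fold at *Wnt1*. The remaining 7, *Wnt4*, *Wnt5a*, *Wnt6*, *Wnt8b*, *Wnt9b*, *Wnt10a* and *Wnt10b*, had none within 20 kb.

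Among the 12 receptors, 9 had a peak (75.0%, exact interval 42.8 to 94.5%, against 62.3% of coding genes), with a median best fold of 11.0. The co-receptor *Lrp6* (gene ID 16974) had 4 peaks in a window of 160 kb, with antisera pileups of 212, 138, 76 and 67 fragments, all against a background of 4.01. The strongest, at 134571471 to 134572175 on chromosome 6, was 42.5-fold enriched (37.0 to 48.6) and lay 4934 bp beyond the higher-coordinate end of the gene. The next, 27.7-fold (23.3 to 32.7), lay inside the gene 2113 bp from the same end. The remaining pair lay deeper inside at 15.4- and 13.6-fold. Thus 2 of the 4 *Lrp6* peaks clustered at 1 end of the span, and no other coding gene was nearer to any of them. Its paralogue *Lrp5* had 3 peaks, with pileups of 115, 52 and 43 against 4.01. The strongest of these (23.1-fold, 19.1 to 27.7) lay 16144 bp outside *Lrp5* and 5564 bp from *1810055G02Rik*, while the peak inside *Lrp5* reached 10.6-fold (7.95 to 13.8). The intervals of the best peaks at *Lrp6* and *Lrp5* did not overlap. Each was picked as the strongest of several, however, and the difference was not tested.

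The Frizzled genes with a peak, which encode seven-pass membrane receptors, all had best peaks below that of *Lrp6*. The best peaks of *Fzd3*, *Fzd4* and *Fzd2* were not below the 10.6-fold peak inside *Lrp5*. *Fzd3*, known for its part in axon guidance, had 3 peaks, the best inside the gene with a pileup of 76 against 4.01 (15.4-fold, 12.1 to 19.2). Another of the 3, 11.4-fold and 7372 bp outside *Fzd3*, lay inside the neighbouring *Fbxo16*. *Fzd4*, which also serves as receptor for the ligand Norrin, had 1 peak inside its 5745 bp span, 858 bp from the nearer end, with a pileup of 69 against 4.01 (14.0-fold, 10.9 to 17.6). At *Fzd2* the summit lay 237 bp outside the gene, the shortest such distance at any member, with a pileup of 54 against 4.01 (11.0-fold, 8.29 to 14.3). *Fzd7*, the receptor through which *Wnt7a* acts in muscle stem cells, had 1 peak inside the gene with only 20 fragments against 4.01 (4.19-fold, 2.64 to 6.36). *Fzd1*, *Fzd6* and *Fzd10* had 1 peak each at 5.39-, 7.28- and 3.78-fold, all outside the gene. *Fzd5*, *Fzd8* and *Fzd9* had none.

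Secreted antagonists were split between 1 gene with many peaks and others with few. A peak was found at 5 of 8 (62.5%, exact interval 24.5 to 91.5%, against 62.3% of coding genes). Antagonist windows held 26.6 peaks per Mb (14.5 to 44.6), and 9 of the 14 peaks belonged to *Dkk2*. *Dkk2* (gene ID 56811), a modulator of the Lrp co-receptors, spans 95039 bp on chromosome 3, and 8 of its 9 summits lay inside the span. Antisera pileups were 207, 163, 65, 47, 44, 34, 31, 23 and 18 fragments. The background was 4.01 or 4.02 at each, at or just above the genome-wide minimum. The strongest peak, at 132091713 to 132092379 and 6714 bp downstream of the annotated start, was 41.5-fold enriched (36.1 to 47.5). The second, 32.7-fold (27.9 to 38.1), lay 49035 bp downstream of the start. The other seven ranged from 3.79- to 13.2-fold. Of the 5077 coding genes with spans between 30 and 100 kb, 0.335% had as many peaks as *Dkk2*, the 90th percentile being 4. *Dkk2* lies near the upper edge of that class, so the comparison is not closely matched for length. Among coding genes above 100 kb the median was 4 peaks and the 90th percentile 13.

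*Sfrp1*, which encodes a soluble Frizzled-related protein that binds Wnt ligands, had 2 peaks. The stronger lay 16120 bp outside the gene, with a pileup of 73 against 4.67 (13.1-fold, 10.3 to 16.4), and the weaker inside it, with 22 against 4.01 (4.59-fold, 2.95 to 6.84). *Dkk3*, a divergent Dkk family member, had 1 peak at 12.7-fold that lay inside the neighbouring *Usp47*. *Sfrp4* and *Dkk1* had 1 peak each, at 4.19- and 3.79-fold, and the *Sfrp4* peak lay inside *Epdr1*. *Dkk4*, *Sfrp2* and *Sfrp5* had none.

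*Dact3* (gene ID 629378) held the strongest peak of the set by a factor of 2.19 over the next member. The gene lies at 16875317 to 16887301 on chromosome 7, and the peak at 16874473 to 16875155 was 683 bp wide. The antisera pileup was 556 fragments and the background 4.01. This 111-fold enrichment (102 to 121) ranked 55th by fold among the 51356 peaks and above 99.8% of the best peaks of coding genes. Its summit lay 473 bp upstream of the annotated *Dact3* start and 42 bp inside *9330104G04Rik*, beside the letters printed above. Of the 47 summits at members whose start was given by a RefSeq window, it was the only 1 within 1 kb of such a start. For the other 15 members no start was at hand. *Fzd2* is among them, and its summit lay 237 bp outside the gene. A second *Dact3* peak, 7.78-fold (5.56 to 10.6), lay inside *Dact3* 2899 bp from its start. The other Dact genes showed nothing of this size: *Dact2* had 1 peak 5676 bp outside the gene, with 51 fragments against 4.01 (10.4-fold, 7.77 to 13.6), and *Dact1* had none within 20 kb. *Axin2*, a feedback inhibitor and a common target gene of the pathway, had 3 peaks, all inside the gene, with pileups of 62, 41 and 33 against 4.01 and fold enrichment of 6.78 to 12.6. *Axin1*, the scaffold of the beta-catenin destruction complex, had none although its window was 105 kb wide.

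**Figure D3:**
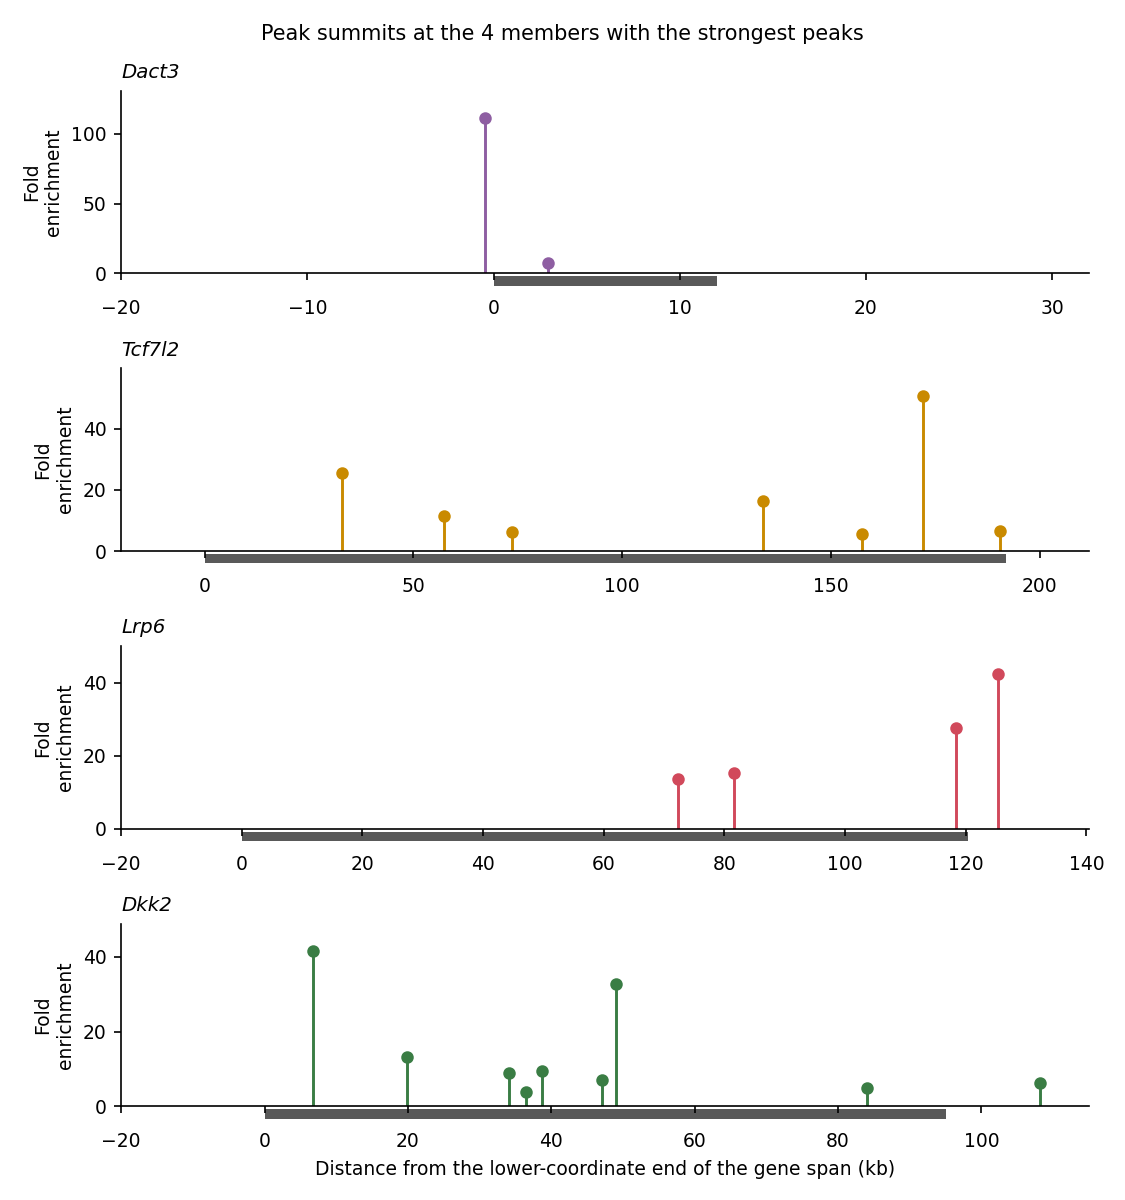
Position (x axis, kb from the lower-coordinate end of the gene span) and fold enrichment (y axis, linear, scaled per gene) of every summit within 20 kb of *Dact3*, *Tcf7l2*, *Lrp6* and *Dkk2*. Grey bars are gene spans and their left end is the annotated 5 prime side for *Dact3*, *Tcf7l2* and *Dkk2*, while the strand of *Lrp6* was not used. The 111-fold *Dact3* summit stands just outside the gene, the *Tcf7l2* and most *Dkk2* summits lie inside, and the 42.5-fold *Lrp6* summit stands beyond its right end.

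A peak was found at 4 of the 5 nuclear effectors (80%, exact interval 28.4 to 99.5%, against 62.3% of coding genes), with a median best fold of 10.6. Of these, *Lef1*, *Tcf7l1* and *Tcf7l2* span more than 100 kb, a class in which 95.2% of coding genes had a peak. *Tcf7l2* (gene ID 21416), which encodes a TCF protein that recruits beta-catenin to target genes, spans 191863 bp on chromosome 19 and had 7 peaks, all inside. Antisera pileups were 253, 127, 81, 56, 35, 32 and 30 fragments. The background was 5.61 at the peak of 35 and 4.01 at the others. The strongest peak, at 55913479 to 55914146, was 50.7-fold enriched (44.6 to 57.3) and lay 19877 bp from the far end of the gene, and the second was 25.5-fold (21.3 to 30.3). As many peaks or more were found at 33.0% of the coding genes with spans above 100 kb, so the number of peaks was ordinary for its length. Its paralogue *Tcf7l1*, a repressor in embryonic stem cells, had 3 peaks inside a span of 162675 bp, of which the best was 7.78-fold (5.56 to 10.6), below the interval of the best *Tcf7l2* peak. *Lef1*, with a span of 114061 bp, had a single peak of 66 fragments against 4.01 (13.4-fold, 10.4 to 16.9), 1644 bp upstream of an internal start. *Tcf7* had 1 peak at 5.78-fold that lay 17657 bp outside the gene and 1652 bp from *Skp1*. *Ctnnb1* had none within 20 kb.

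The roles could not be told apart by peak density. Ligand windows held 16.4 peaks per Mb (10.0 to 25.3), receptor windows 19.1 (10.9 to 31.0), antagonist windows 26.6, Dact and Axin windows 18.2 (6.70 to 39.7) and effector windows 16.4 (8.46 to 28.6). All 5 intervals overlap and all include the 19.7 per Mb of coding genes. By the median best fold the ligands were lowest at 7.48, with 10.6 in effectors, 11.0 in receptors, 12.6 in Dact and Axin genes and 12.7 in antagonists, all but the last 2 below the 12.2 of coding genes. These medians rest on 3 to 12 genes each and were not tested.

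**Figure D4:**
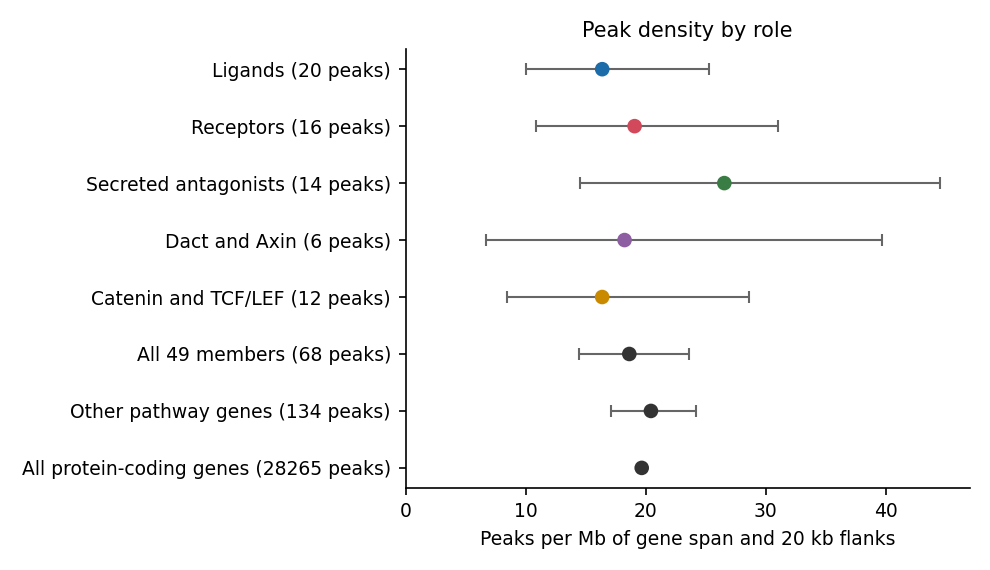
Unique peaks per Mb of gene span with 20 kb flanks (x axis) for each role, all members, the other pathway genes and all protein-coding genes, with Poisson 95% intervals as bars and peak counts in the row names. Every interval of a role includes the value of coding genes, 19.7 per Mb.

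Summits lay inside the member in 42 of the 68 cases (61.8%), against 56.0% of the 36935 pairs of a protein-coding gene and a peak within 20 kb of it. Of the 26 outside, 7 had another protein-coding gene nearer, and for 4 members (*Wnt1*, *Dkk3*, *Sfrp4* and *Tcf7*) that was their only peak. The 20 kb limit passed between *Wnt2*, whose only summit lay 19877 bp outside the gene at 5.59-fold, and *Fzd5*, whose nearest summit lay 21.3 kb away at 9.57-fold. The local background was at the lowest value of the list in 55 of the 68 (80.9%), against 78.0% of all peaks, so at these fold enrichment is a rescaled pileup. The 13 with a higher background were the 5 peaks at *Wnt7b* and *Fzd6* on chromosome 15 (4.25 to 5.05), 2 peaks at *Fzd3* and 1 each at *Wnt3*, *Fzd10*, *Dkk2*, *Dkk3*, *Sfrp1* and *Tcf7l2*, on other chromosomes. The *Wnt1* peak, also on chromosome 15, was at the lowest value.

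The rest of the pathway was described with a list of 58 further genes. Of these, 45 had a peak within 20 kb (77.6%, exact interval 64.7 to 87.5%, against 62.3% of coding genes), but their median span of 47.2 kb was longer than the 21.9 kb of members and the 17.1 kb of coding genes. Their windows held 20.4 peaks per Mb (17.1 to 24.2), near the 19.7 of coding genes. Both genes of ligand secretion, all 5 genes of agonist ligands and all 4 of the Ror, Ryk and Ptk7 receptors had a peak. So did 13 of 16 cytoplasmic components, 6 of 8 nuclear cofactors and 6 of 11 further antagonists. Among the Lgr, Znrf3 and Rnf43 genes it was 4 of 5, and among polarity genes 5 of 7. These counts were not matched for gene span, and above 100 kb 95.2% of coding genes had a peak. The best peaks at *Rspo1*, *Ptk7*, *Dvl1*, *Dvl3*, *Apc*, *Csnk1e*, *Lgr6*, *Pygo2*, *Tle2* and *Cer1* lay nearer to other coding genes. Where the gene had to be the nearest protein-coding gene, 38 of the 58 had a peak, against 46.8% of coding genes. *Wls*, the carrier that takes Wnt ligands to the cell surface, had 12 peaks, and the best was 71.0-fold enriched (63.8 to 78.8) with a pileup of 355 against 4.01, 11905 bp outside the gene. At least 12 peaks were found at 0.0591% of coding genes of 30 to 100 kb, but *Wls*, at 99017 bp, lies at the upper edge of that class. Among coding genes above 100 kb the median was 4 peaks and the 90th percentile 13. *Rspo3*, an R-spondin agonist, had a 57.2-fold peak (50.8 to 64.3) inside the gene. The co-repressor *Tle1* had 49.7-fold, the kinase gene *Gsk3b* 48.3-fold and the R-spondin receptor gene *Lgr4* 42.7-fold, all inside the gene.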

How the data were processed

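The submitters' processing notes name BWA, MACS2 and mm10. Peaks were called on paired-end data by MACS version 2.1.0.20151222, per the file headers, with the control library as input, a q-value limit of 0.01 and 1 fragment kept per position. The deposited pileup is a signal, the antisera fragments over the summit. The authors' table also gives −log10 of the p-value and q-value, and fold enrichment as a ratio. Per the file headers depth was 26253175 and 23412256 fragments after filtering. No source used here gives mapping filters.

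The control-derived background was recovered from pileup and fold with the pseudocount of 1. Gene spans and promoter windows came from RefSeq for GRCm38.p6, whose primary assembly is mm10. They give no exons, so exonic or intronic position was not analysed here. Intervals are exact Poisson or binomial at 95% (scipy 1.17.1). Samples were grouped by antibody label. No test was made. Peak assignment was tested on simulated data. Full values were given for the 12 members of highest fold and the best of each role, and for further members named after their values were seen. Members and lists were chosen with earlier results of these data known, and span classes and motif letters after the data were seen. Alternatives were other distances, stricter q-values, the strongest 10% of peaks, a background limit of 10, overlap and nearest-gene assignment.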

Additional observations from a re-analysis of the deposited data

How the results depend on the processing

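Of 83 recomputed values, 61 stayed within 1.5 times the reported count or within the interval of the reported value. These include every value at −log10 q of 5 or more, under the background limit of 10 and by peak overlap, all unchanged. No member peak could be lost to that q limit or that background limit. The lowest −log10 q at a member was 5.10 and the highest background 8.97. Within 5 kb, 21 members (42.9%, against 43.2% of coding genes) and 2 antagonists had a peak, and 89.4% of summits lay inside the gene. Within 50 kb, 91.8% of members and 81.3% of coding genes had one, with 8 antagonists and 114 peaks, and 35.6% of 118 pairs of a member and a peak were inside. Inside the span alone there were 42 peaks at 18 members (36.7%, against 32.3% of coding genes), with 6 ligands, 5 receptors and 2 antagonists. At −log10 q of 10 or more 55.1% of members, 3 antagonists and 58.1% of coding genes had a peak. Where the gene had to be the nearest protein-coding gene these were 59.2%, 3 and 46.8%. The members' share thus lay above or below that of coding genes depending on the setting. In the strongest 10% of peaks, 7 peaks lay at 4 members (8.16%, against 13.2% of coding genes) with a median best fold of 46.6, at 0 ligands and at 1 receptor, 1 antagonist, 1 Dact or Axin gene and 1 nuclear effector, and 11 other pathway genes had one. Fewer peaks or shorter windows lower these counts by construction. No paired analysis was possible because each group has 1 library. Replicates, read mapping in repeats and the human data were not analysed here, and the antisera depth limits weak peaks, such as the 18 fragments at *Dkk1*.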

Other observations

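For the 16 members with no summit within 20 kb, the nearest summit lay between 21.3 kb away at *Fzd5* and 107 kb away at *Wnt8b*. It was 24.1-fold enriched, 29.5 kb from *Wnt9b*, and 16.2-fold enriched, 70.8 kb from *Axin1*. At *Ctnnb1* it was 85.7 kb away and 5.78-fold enriched, with a pileup of 28 fragments. *Wnt10a* and *Wnt6*, neighbours on chromosome 1, shared the same nearest summit, 80.4 and 42.8 kb away at 10.6-fold.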
